A study of Mus musculus with 6 samples.

Results

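Exonic circRNAs without an earlier record were taken as all entries of the circRNA table that the authors classed as exonic and for which they found no match by position in the circRNA databases they searched. There were 731 of them among 3696 circRNAs (19.8%). A further 2114 exonic circRNAs had a record and are used here for comparison. RNA was measured in lung of male C57BL/6 mice, 8 to 10 weeks old, of 2 groups. In the primary blast lung injury (PBLI) group, anesthetized mice received a blast wave with an overpressure of 0.5 bar and the lungs were taken 6 h later, and in the Control group the mice were anesthetized and not exposed. Each group had 3 libraries of total RNA depleted of ribosomal RNA, and each library was a pool of the right upper lobes of 2 mice, so that differences between single animals within a pool were not measured. Libraries are called G3, G4 and G5 (PBLI) and 1, 2 and 3 (Control).

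A circRNA forms when the donor splice site at the end of an exon is joined to the acceptor splice site at the start of the same exon or of an exon upstream, which is called back-splicing. The product is a closed ring without a cap or a tail, and rings of this kind are known to resist exonucleases and to be long-lived in cells. Most enclose exons of protein-coding genes, often beginning at an exon near the 5′ end of the transcript, and long introns with inverted repeats on both sides are known to favour their formation. A read that crosses the back-splice is a junction read, and it is the only kind of read that tells the ring from the linear mRNA.

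The back-splice junctions of a few of these circRNAs are shown because they mark how the rings of 1 gene differ. Each sequence was read from the reference genome GRCm38.p6 on the strand of the gene, 15 bases on each side of the junction, all of them coding. Lower case gives the end of the donor exon and capitals give the start of the acceptor exon. The 4 rings of Glcci1 (glucocorticoid induced 1, on the plus strand of chromosome 6) had the same acceptor at exon 2 and 4 different donors.
Glcci1 exon 3 to exon 2, chr6:8537817-8558586: gatcaactgaaagagTGGACAGGCCAAAAT
Glcci1 exon 5 to exon 2, chr6:8537817-8579739: gaagaagtgtccaagTGGACAGGCCAAAAT
Glcci1 exon 6 to exon 2, chr6:8537817-8582790: atgatcgtgataaagTGGACAGGCCAAAAT
Glcci1 exon 7 to exon 2, chr6:8537817-8591665: ctttgaggaaatggcTGGACAGGCCAAAAT

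Prex2, a guanine nucleotide exchange factor for Rac, showed the opposite layout in 3 of its 5 rings, with a single donor at exon 11 and 3 different acceptors (plus strand of chromosome 1).
Prex2 exon 11 to exon 5, chr1:11080023-11112843: ggatcatccaccatgAACTGCATGCTGCTT
Prex2 exon 11 to exon 6, chr1:11089717-11112843: ggatcatccaccatgGAATTACTGAAGCGG
Prex2 exon 11 to exon 7, chr1:11098463-11112843: ggatcatccaccatgGGGTCCAACATTACT

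The rings of Lrch1 and Cdkn3 had reads in PBLI libraries alone and that of Pde5a in a Control library alone, and their junctions are given because these rings are described in the comparison of the groups. The Zfx ring is not shown, since 1 of its ends lies in a UTR. Lrch1 lies on the minus strand and the other two on the plus strand.
Lrch1 exon 10 to exon 3, chr14:74807474-74835775: gcacatggaggaactTCGAAATCAGCTGTC
Cdkn3 exon 6 to exon 2, chr14:46762528-46768897: gaagatcctgtcttgCCCATTTCAATACAA
Pde5a exon 9 to exon 3, chr3:122760878-122795321: agaacaaagtcatagGATCCCCGGTTCAAT

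The exonic circRNAs without a record were rare rings at the depth of these libraries. They had 411, 399 and 524 junction reads in the PBLI libraries (G3, G4, G5), out of 4018, 3568 and 4733 for all circRNAs, against 261, 223 and 379 in the Control libraries, out of 2772, 2513 and 3379. Together they took 10.5% of all junction reads while making up 19.8% of the entries, and the recorded exonic circRNAs took 74.1%. Of the 731, 470 (64.3%) had 2 reads in all, against 515 of the 2114 recorded exonic circRNAs (24.4%), and 16 (2.19%) had at least 10, against 387 (18.3%). Every circRNA in the table had at least 2 reads in at least 1 library, so an entry with 2 reads has both in the same library by construction. Accordingly, 560 of the 731 (76.6%) were read in 1 library alone, and 6 were read in all 6 libraries, against 631 (29.8%) and 204 (9.65%) of the recorded ones. The number of libraries in which a ring of few reads appears is therefore no measure of its presence in the tissue.

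Within each library, a detected exonic circRNA without a record had a mean of 2.06 to 2.28 reads and a recorded one 2.40 to 3.00 reads. The difference was -0.48 ± 0.18 reads (SD, n = 6 libraries) and was negative in 6 of 6 libraries (exact sign permutation test over libraries, p = 0.03125, two-sided, the smallest that 6 libraries allow). With the median over detected rings in place of the mean the difference was 0 (exact sign permutation p = 1), where counts near 1 and 2 reads are tied.

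The groups were first compared in how much of the circRNA pool these rings made up. The PBLI libraries held more of them in number: 191, 194 and 230 were detected in G3, G4 and G5, against 122, 106 and 173 in Control 1, 2 and 3. The groups did not overlap, the means were 205.0 ± 21.7 and 133.7 ± 34.99 (SD, n = 3 each), and the exact permutation test gave p = 0.1 (two-sided), the smallest that 3 against 3 allows. The PBLI libraries also had more junction reads in all, 4106 ± 588 on average, against 2888 ± 444 (p = 0.1, exact permutation test, n = 3 each). Thinned to 2513 reads, the depth of the smallest library, they held 168.6 ± 8.8, against 127.4 ± 26.6 (p = 0.1, exact permutation test, n = 3 each). The table had been filtered at full depth, which a ring passes more easily in a deeper library, so the thinned numbers do not compare the groups at equal depth.

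As a share of what was detected or read, the groups overlapped. Exonic circRNAs without a record were 12.6, 13.5 and 13.8 of every 100 detected circRNAs in PBLI G3, G4 and G5, against 10.4, 9.86 and 12.9 in Control 1, 2 and 3 (means 13.3 ± 0.64 and 11.1 ± 1.61, exact permutation p = 0.2). They took 10.2%, 11.2% and 11.1% of junction reads in the PBLI libraries, against 9.42%, 8.87% and 11.2% in the Control libraries. That difference of 0.99 percentage points had an exact permutation p of 0.4, and for the share of exonic junction reads it was 1.13 percentage points with p = 0.3. Without Control 2 these differences were 0.51 and 0.52 percentage points, and without Control 3 they were 1.68 and 1.92 percentage points. Control 3 was the highest Control library in each of these measures and lay within or near the PBLI range.

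**Figure D1:**
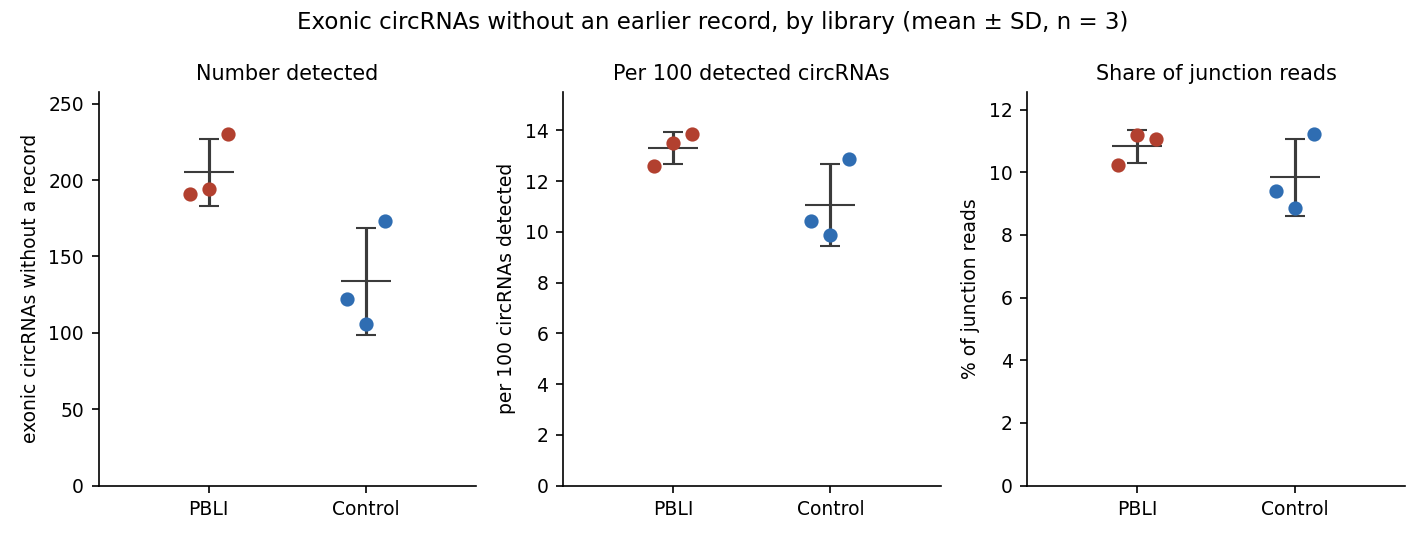
Number of exonic circRNAs without a record that were detected, their number per 100 detected circRNAs and their share of junction reads in percent, for each library (points), with mean ± SD (bars, n = 3 per group). The PBLI libraries lie at 191 to 230 detected rings and the Control libraries at 106 to 173, while the shares of junction reads overlap (10.2% to 11.2% and 8.87% to 11.2%).

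The best-read rings came from Setd3, Ube2d2a, Glcci1 and Zfx. The 12 with the most reads held 292 of the 2197 reads (13.3%), and 8 of the 12 began at exon 2. The ring of exons 2 to 6 of Setd3 (chr12:108157754-108165172, minus strand), which encodes a methyltransferase of actin, had 75 reads. It had 8, 11 and 20 reads in G3, G4 and G5 of PBLI, or 1.99, 3.08 and 4.23 per 1000 junction reads of the library, against 14, 10 and 12 reads in Control 1, 2 and 3, or 5.05, 3.98 and 3.55 per 1000. The groups overlapped, and edgeR's quasi-likelihood test gave a log2 fold change of -0.16 (adjusted p = 0.812). The only other Setd3 ring in the table was a recorded, non-exonic one with 2 reads.

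The ring of exons 2 to 6 of Ube2d2a, a ubiquitin-conjugating enzyme, had 5, 4 and 9 reads in the PBLI libraries, against 7, 4 and 9 in the Control libraries. Its level of 1.42 ± 0.42 per 1000 in PBLI and 2.26 ± 0.59 in Control (SD, n = 3 each) did not pass the test (edgeR log2 fold change -0.42, adjusted p = 0.624). These 2 rings were read in every library, as were 2 rings of Glcci1 and those of Dcun1d1 and Calcrl.

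Glcci1 had no recorded circRNA in the table, and its 4 rings together had 14, 8 and 12 reads in G3, G4 and G5 of PBLI, against 5, 10 and 12 in Control 1, 2 and 3. Per 1000 junction reads this was 2.75 ± 0.65 in PBLI and 3.11 ± 1.15 in Control (SD, n = 3 each, exact permutation p = 0.7). Most reads fell on the ring of exons 2 to 6, with 6, 4 and 7 reads in PBLI against 3, 5 and 7 in Control. The ring of exons 2 to 5 had 5, 3 and 1 against 2, 5 and 2. The other two, exons 2 to 3 and exons 2 to 7, had 5 and 6 reads in all. The mRNA of Glcci1 was at 5.49, 5.03 and 3.43 FPKM (fragments per kilobase and depth unit, as cuffdiff gives them) in PBLI, against 8.82, 9.47 and 6.23 FPKM in Control. The groups did not overlap, yet with an adjusted p of 0.139 (limma, log2 fold change -0.76, SE 0.22) it did not pass.

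Among the other well-read rings, Dcun1d1, which encodes a factor that attaches NEDD8 to cullins, had 6, 7 and 1 reads in PBLI against 3, 4 and 1 in Control. Rbm4, a splicing regulator, gave the only ring that began at exon 1 among those placed on a transcript, with 2, 0 and 8 reads against 1, 3 and 7. Ankrd12, an ankyrin repeat protein of nuclear receptor complexes, had 4, 3 and 2 against 3, 0 and 5 on its ring of exons 2 to 5. Calcrl, the endothelial receptor of adrenomedullin, had 1, 3 and 3 against 1, 1 and 2. All 4 varied within a group as widely as between the groups.

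The phosphatase gene Ppm1b had 3, 1 and 3 reads in PBLI, against 5, 0 and 0 in Control. The lipid transfer gene Osbpl9 had 4, 4 and 0 against 2, 2 and 0. Chmp3, part of the ESCRT-III membrane remodelling complex, had 5, 3 and 1 against 0, 0 and 2, a ratio of 3.165 with a 95% interval from 0.66 to 30.1. That interval, like those below, is an exact one of the pooled counts and covers counting error only, and it includes 1.

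**Figure D2:**
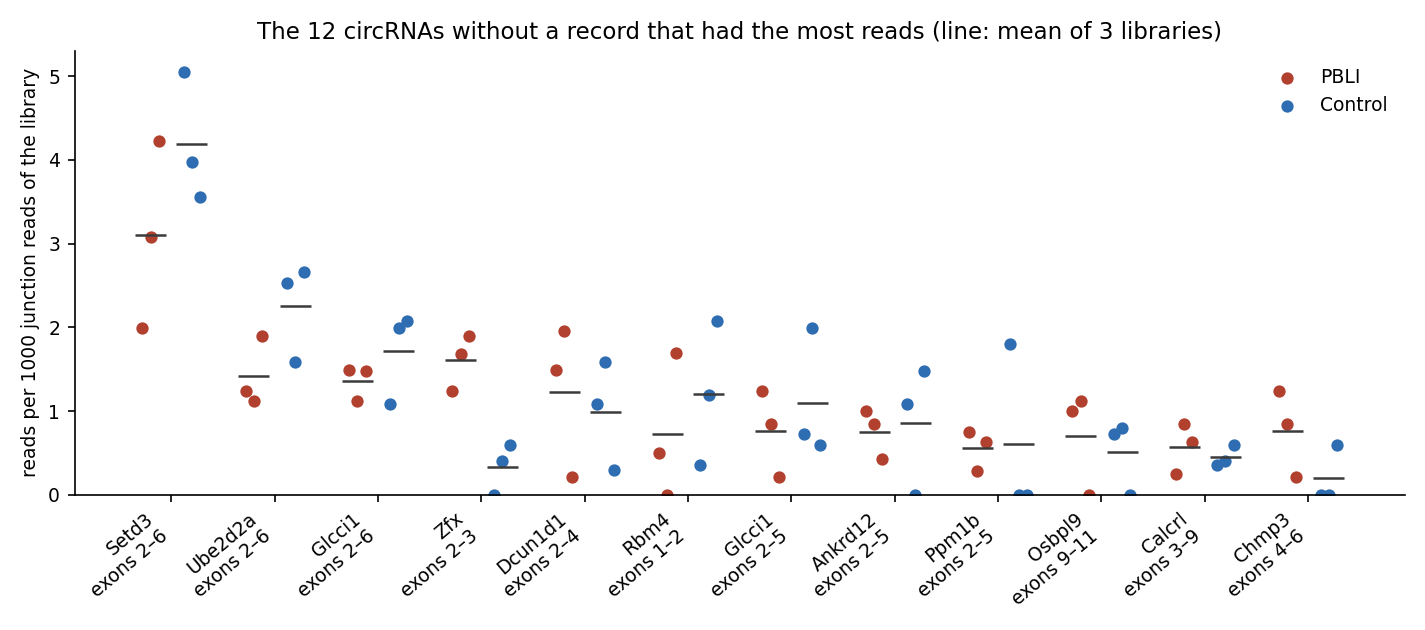
Reads per 1000 junction reads of the library for the 12 best-read exonic circRNAs without a record, with PBLI libraries on the left and Control libraries on the right of each gene (points) and the mean of 3 libraries (line). Of the 12, only the Zfx ring has all PBLI libraries above all Control libraries; Setd3, the best-read ring, overlaps at 1.99 to 4.23 and 3.55 to 5.05.

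Between PBLI and Control, 2 rings passed the study's thresholds of a fold change of at least 2 and p of at most 0.05 with higher values in PBLI, those of Zfx and Lrch1, and none passed with lower values. This is 0.274% of the 731, while 0.785% of all 3696 circRNAs passed as higher and 0.487% as lower. Nothing is read from this gap, since the rings with 2 reads could not pass and the order for higher values turned round under other settings. None of the 731 or of the 3696 had an adjusted p under 0.05 (edgeR, Benjamini-Hochberg over all circRNAs, lowest adjusted p 0.586 and 0.527). At an unadjusted p under 0.05 there were 2 of the 731 and 48 of the 3696. DESeq2 called 1 of the 731 as higher (0.137%), against 4 of all 3696 (0.108%), and none as lower, against 7 (0.189%). edgeR's exact test called 2 as higher, against 22 (0.595%), and none as lower, against 8 (0.216%). Among circRNAs with at least 6 reads, 3 of 37 without a record (8.11%) passed as higher, against 39 of 862 (4.52%), and none as lower, against 19 (2.2%). The smallest unadjusted p of a ring with 2 reads in all was 0.308 in edgeR, so none of the 470 such rings could pass at this depth. The paper's own calls at these thresholds differ, and it used edgeR without naming the test. Among the rings without a record, it lists those of Lrch1 and Cdkn3 as up-regulated. It lists 1 such ring each of Ptp4a2 and Pde5a as down-regulated.

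Zfx, an X-linked zinc finger transcription factor, had the clearest difference. Its ring of exons 2 and 3 (chrX:94098283-94102380, minus strand) had 5, 6 and 9 reads in G3, G4 and G5 of PBLI, against 0, 1 and 2 reads in Control 1, 2 and 3. Every PBLI library lay above every Control library, at 1.24 to 1.902 per 1000 junction reads against 0 to 0.59. The ratio of the pooled shares was 4.69 (95% interval 1.39 to 24.6), and edgeR gave a log2 fold change of 2.35 with an unadjusted p of 0.00517 and an adjusted p of 0.586. A recorded Zfx ring with the same donor, of exons 2 to 4 of another transcript, had 1, 0 and 2 reads in PBLI against 0, 1 and 2 in Control. Zfx mRNA was at 27.1 ± 0.43 FPKM in PBLI and 25.1 ± 1.497 FPKM in Control (SD, n = 3 each; limma adjusted p = 0.526).

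The Lrch1 ring, from a gene for a leucine-rich repeat protein, had 0, 10 and 0 reads in the PBLI libraries and none in the Control libraries. All of its reads were in G4, so its p of 0.00611 (edgeR, adjusted p = 0.586) stands on 1 pool. Set against 3 reads over the Control group in place of 0, it was 2.34-fold higher in PBLI. This value leaves out the counting error of the 10 reads and the spread between pools, and is not a lower bound. Lrch1 mRNA was at 18.8 ± 2.71 FPKM in PBLI and 20.2 ± 1.01 FPKM in Control (SD, n = 3 each; limma adjusted p = 0.650), and in G4 it was at 21.3 FPKM.

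The next smallest p values among rings with more reads in PBLI belonged to Cdkn3, Tmbim4 and Arhgap6, none of which passed in the quasi-likelihood test. Cdkn3, a phosphatase that acts on a cell cycle kinase, had 4, 1 and 1 reads in PBLI and none in Control (edgeR, adjusted p = 0.586). Set against 3 reads over the Control group its ring was 1.41-fold higher, a value that leaves out the counting error of the PBLI reads and is not a lower bound. Tmbim4, a Golgi protein gene, and Arhgap6, a gene for a GTPase-activating protein, each had 3, 2 and 0 reads in PBLI and none in Control. Nox4, an NADPH oxidase, had 1, 2 and 2 reads in PBLI and none in Control on its ring of exons 12 and 13.

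Cdkn3, Nox4 and Zfx were 3 of 7 rings whose PBLI libraries all lay above all Control libraries. The others, with 4 reads each and named after their values were seen, came from Smg6, Etv1, Cped1 and Gab2. None lay entirely below. This is 0.958% and 0% of the 731, against 1.98% and 1.43% of all 3696 circRNAs. A ring must have at least 1 read in every library of a group to stand apart in this way, which few of the 731 had.

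In the other direction the smallest p values belonged to Ptp4a2, Pde5a, Birc6, Ube4b and AK084170, and none passed in the quasi-likelihood test. The Ptp4a2 ring of exons 2 and 3, from a protein tyrosine phosphatase gene, had no read in PBLI against 2, 0 and 3 in Control (edgeR, adjusted p = 0.586), while another ring from the same acceptor, exons 2 to 4, had 0, 0 and 2 in PBLI against 0, 3 and 0 in Control. Birc6 and Ube4b, both of the ubiquitin pathway, and AK084170 each had 4 reads, all in Control 1.

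Pde5a encodes the phosphodiesterase that breaks down cGMP in vascular smooth muscle. Its ring of exons 3 to 9 had no read in PBLI against 0, 0 and 5 in Control, with all reads in Control 3 (edgeR, adjusted p = 0.586). Set against 3 reads over the PBLI group it was 2.37-fold lower, which is not a lower bound either. The 5 recorded rings of Pde5a had 78 reads in PBLI and 38 in Control.

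In total, 394 of the 731 rings (53.9%) had reads in PBLI alone, 227 (31.1%) in Control alone and 110 (15.05%) in both. Over all circRNAs these shares were 36.04%, 23.4% and 40.6%. The PBLI libraries together had 1.42 times the junction reads of the Control libraries, and the part of this gap in the split between the groups was not tested. TMM scaling, used in the edgeR test, shifted log2 fold changes by 0.24 towards PBLI relative to library totals.

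The rings without a record came from 631 host genes, of which 553 gave 1, 61 gave 2, 13 gave 3, 3 gave 4 and 1 gave 5. For 224 of the hosts (35.5%) the table also held a recorded circRNA, and 448 rings came from hosts for which it held none. Prex2 gave the most, 5 rings besides 6 recorded ones. Its 5 rings had 11 reads in PBLI and 7 in Control, and its recorded rings 29 and 36. The ring of exons 24 to 34 had 3, 0 and 0 reads in PBLI and none in Control, and joined an acceptor of 1 recorded ring to the donor of another, and the ring of exons 26 to 33 had 1, 2 and 0 in PBLI and none in Control.

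Macf1, a giant linker of actin and microtubules, gave 4 rings, of which the ring of exons 41 to 68 was 6846 bases long and had 0, 0 and 2 reads in PBLI against 0, 3 and 1 in Control. Lrrk2, a large kinase, also gave 4, of exons 8 to 14, 31 to 36, 41 to 45 and 42 to 47, each with reads in a single library. Of these, 2 were read in PBLI G5 and 2 in Control 3. The 3 rings of Ankrd12 had 12 reads in PBLI and 10 in Control.

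**Figure D3:**
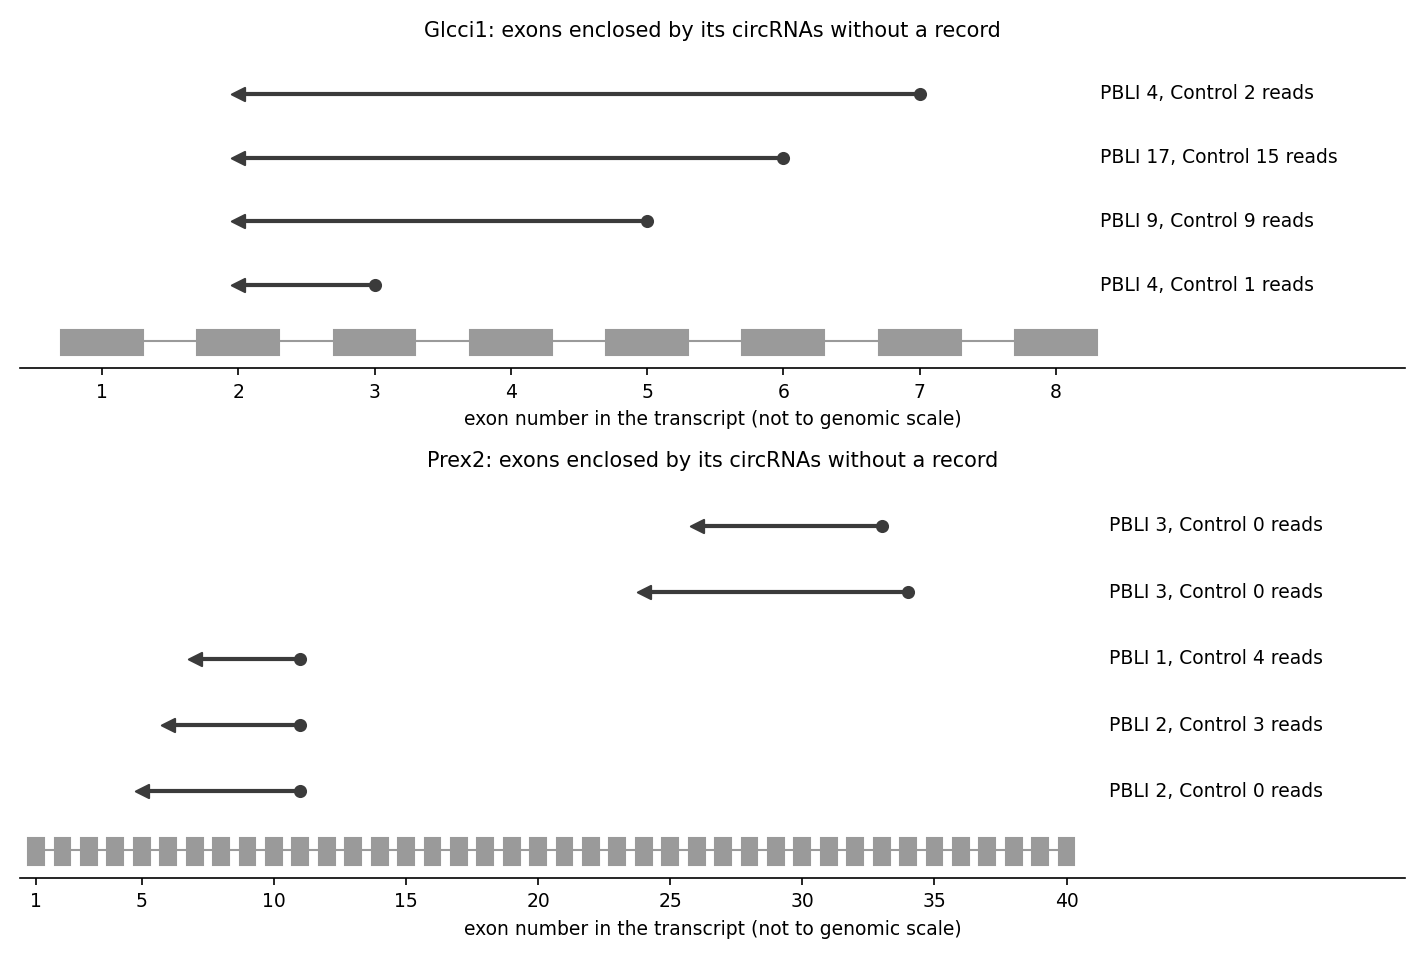
Exons enclosed by the 4 Glcci1 rings and the 5 Prex2 rings without a record, by exon number, with the donor exon as a dot, the acceptor exon as an arrowhead and the reads of each group at the right. All Glcci1 rings begin at exon 2, and 3 Prex2 rings end at exon 11.

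Every one of the 731 rings was bounded by the splice signals AG and GT and by annotated exon ends, and so were all 2114 recorded exonic circRNAs. The authors assigned the exonic class from the position of both ends, so this is a check of the class and no separate result. The exons could be placed on a RefSeq transcript for 722 and 2093 of them. Both ends lay in coding sequence in 640 of the 722 (88.6%), against 1694 of the 2093 recorded ones (80.9%). The 731 rings spanned a median of 4 exons (recorded 3) and were 517 bases long (recorded 491.5), with quartiles at 338.5 and 893.5. The longest, 8312 bases, enclosed exons 26 to 70 of Huwe1, a ubiquitin ligase gene, and rested on 2 reads of PBLI G3.

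Where the rings began and what flanked them differed from the recorded class. Within the libraries, 24.8% to 27.2% of the detected rings without a record began at exon 2, against 39.5% to 41.8% of the recorded ones, a difference of -14.4 ± 0.56 percentage points (SD, n = 6 libraries). The median intron before the first exon was 5992 to 7221 bp, against 11863 to 12770 bp, and the median intron after the last exon was 4182 to 6161 bp, against 9912 to 10347 bp. They spanned more exons, a mean of 4.85 to 5.45 against 3.84 to 4.04. Between 16.2% and 25.5% shared a back-splice end with another, recorded circRNA, against 40.4% to 42.8% of the recorded ones. Each of these differences had the same sign in 6 of 6 libraries (exact sign permutation test, p = 0.03125, and the same value after Benjamini-Hochberg adjustment over the 8 measures compared). The libraries share well-read rings and are not wholly independent in this test. The difference in common ends has a further limit. For 448 of the rings without a record, the table held no recorded circRNA of the same host with which to share an end. The comparison was not limited to hosts with another recorded circRNA, so it does not tell common ends from the make-up of the hosts.

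In both classes, rings with at least 10 reads began at exon 2 more often and had longer flanking introns than rings with 2 reads, and so the classes were also compared at equal reads. Among rings with 2 reads in all, of which each is in 1 library alone so that the libraries share none, 93 of 465 without a record (20.0%) began at exon 2, against 148 of 510 recorded ones (29.0%), a difference of -9.63 percentage points as the mean over libraries (exact sign permutation p = 0.0625, n = 6). At 2 reads the median intron before was 4532 bp against 7666 bp and the median intron after was 3387 bp against 6416 bp, and 11.1% against 26.8% shared an end with a recorded circRNA. These 3 differences, and that in exons spanned, were again of 1 sign in 6 of 6 libraries (p = 0.03125 each, exact sign permutation). For common ends the limit from the hosts holds here too.

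At the top of the read range the order of the classes turned round for exon 2, and with at least 10 reads also for the intron before. Of the rings with 6 to 9 reads, 8 of 20 without a record (40%) began at exon 2, against 132 of 357 recorded ones (36.98%), while the intron before was still shorter, at a median of 10204 bp against 11348 bp. Of the 16 rings without a record with at least 10 reads, 62.5% began at exon 2, against 191 of the 382 recorded ones placed, and the median intron before was 21452 bp against 15461 bp. With 20 and 16 rings these values are given as a description. The transcripts of the rings with at least 10 reads had a median of 8 exons, against 16 in the recorded class. Common ends stayed rarer than in the recorded class, at 38.1% against 39.1% with 6 to 9 reads and 31.25% against 50.4% with at least 10. The median intron after the last exon was shorter than in the recorded class in all 5 read ranges.

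The differences in length and in the share of rings of 1 exon did not hold at 2 reads, while among rings with more reads they kept their direction. The median length was 42.9 ± 26.0 bases greater in the rings without a record (6 of 6 libraries, exact sign permutation p = 0.03125), but at 2 reads the difference was 16.3 bases with p = 0.688. Rings of 1 exon were 3.15% of those detected in a library, against 8.17% of the recorded ones, a difference of -5.02 percentage points (p = 0.03125, exact sign permutation, n = 6), and at 2 reads the sign was reversed at 0.79 percentage points (p = 0.438). Among rings with at least 3 reads the difference was -5.95 percentage points (p = 0.03125, exact sign permutation, n = 6), and for length it was 51.8 bases (p = 0.0625). In each of the 4 ranges above 2 reads the median length was greater, and the share of rings of 1 exon smaller, than in the recorded class.

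**Figure D4:**
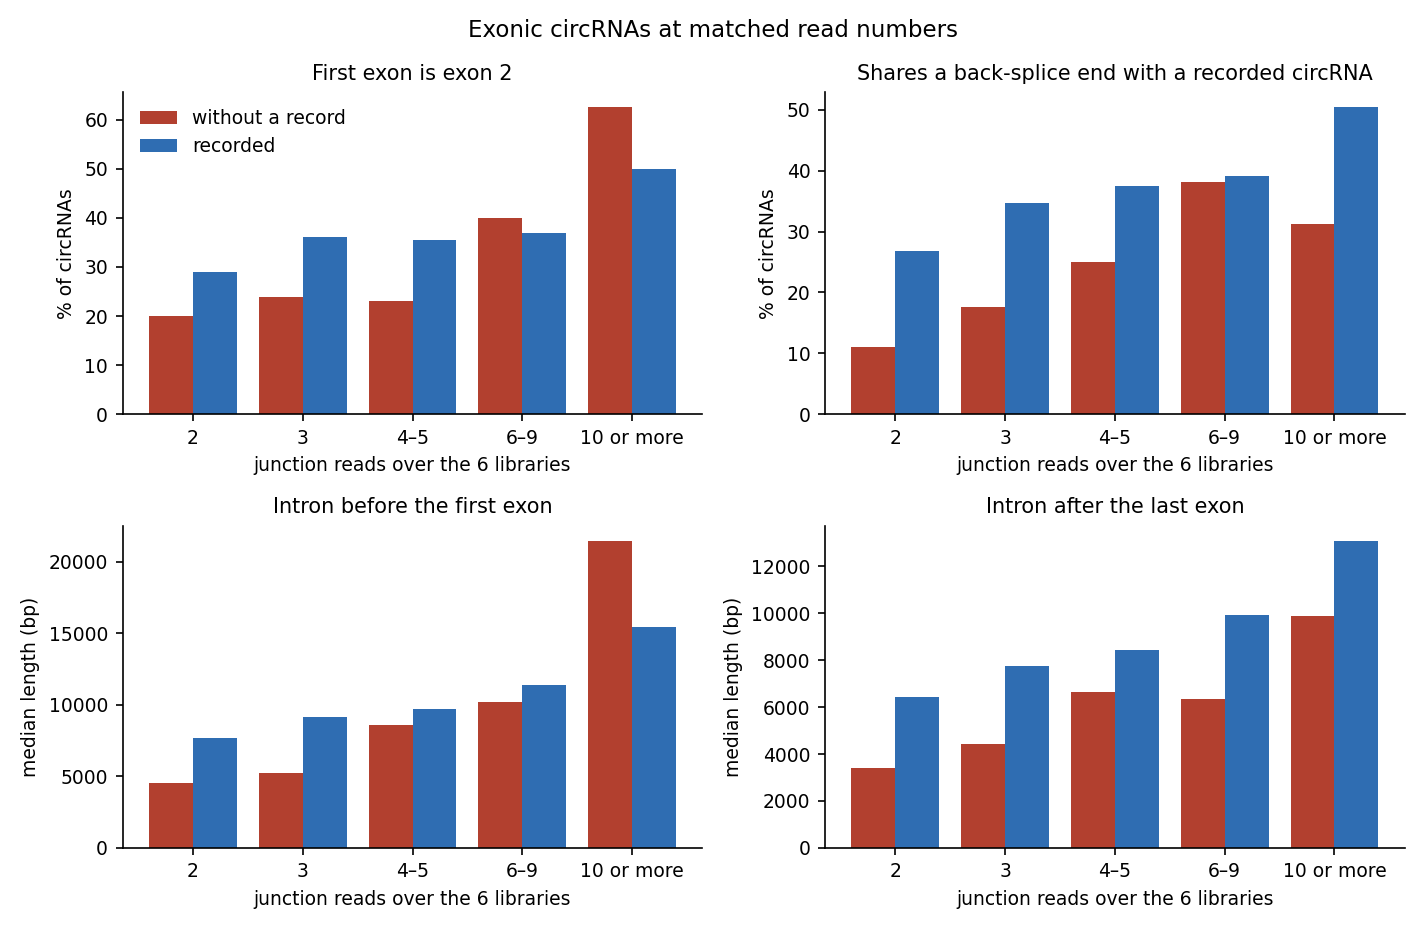
Exonic circRNAs without a record (left bar of each pair) and recorded ones (right bar) in 5 ranges of total junction reads: share that begins at exon 2, share that has a back-splice end in common with a recorded circRNA, and median length in bp of the intron before and of the intron after. At 2 reads the bars stand at 20.0% and 29.0% for exon 2, and at 11.1% and 26.8% for common ends.

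In all, 111 of the 731 rings (15.2%) had a back-splice end in common with a recorded circRNA. The acceptor was the common end in 67 and the donor in 50, which includes 6 with both. Those 6 joined ends of different recorded rings, as in Arih1, named after its values were seen, whose ring of exons 2 to 5 had 1, 1 and 5 reads in PBLI against 0, 2 and 1 in Control. A further comparison among the 731 themselves showed 58 that had an end in common with another of them.

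The hosts were compared as mRNAs between PBLI and Control, since a ring is made from the same precursor as the linear transcript. Of the 631 host symbols 624 were found among the mRNAs and 626 entries were tested. Hosts of rings without a record were at a median of 23.9 FPKM, hosts of recorded rings alone at 20.9 FPKM and all 14760 tested genes at 9.05 FPKM. At the fold and p thresholds 3 host mRNAs (0.479%) were higher in PBLI and 10 (1.60%) were lower, against 1.38% and 1.17% of all tested genes. At an adjusted p under 0.05 (limma) 5 (0.799%) were higher and 9 (1.44%) lower, against 1.15% and 0.928% of all tested genes. These adjusted counts move with single libraries: without Control 1, 2 or 3 they were 0 and 2, 0 and 0, and 3 and 4, and without PBLI G3, G4 or G5 they were 0 and 0, 4 and 6, and 13 and 14. The counts over all tested genes, 170 and 137 with all libraries, moved as well. Without Control 1, 2 or 3 they were 48 and 12, 5 and 0, and 69 and 42. Without PBLI G3, G4 or G5 they were 15 and 3, 69 and 46, and 311 and 188.

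Ptprd, a receptor tyrosine phosphatase, led the host mRNAs that fell. It was at 19.0, 23.3 and 19.7 FPKM in PBLI, against 63.2, 50.6 and 44.4 FPKM in Control (log2 fold change -1.32, SE 0.15, limma adjusted p = 0.0109). Ptprm, of the same family, was at 43.3, 48.9 and 39.9 FPKM against 82.7, 78.8 and 69.0 FPKM (log2 fold change -0.80). Sema3a, a secreted guidance cue, was at 22.7, 24.7 and 25.6 FPKM against 39.5, 38.2 and 36.5 FPKM (log2 fold change -0.64). Ccdc129 and Slc38a5, an amino acid transporter, fell by 1.89 and 1.21 on the log2 scale. In all 5 the groups did not overlap, which the choice of genes by smallest p favours. The share of all tested mRNAs without overlap is not given here.

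Osmr, the oncostatin M receptor, led the host mRNAs that rose, at 66.6, 66.5 and 79.3 FPKM in PBLI against 39.5, 34.3 and 41.9 FPKM in Control (log2 fold change 0.87, SE 0.11, limma adjusted p = 0.0163). Stip1, a co-chaperone, rose by 0.95, Abcc1, an efflux transporter, by 0.95, Larp1b, an RNA-binding protein, by 0.80 and Slc43a3, a purine transporter, by 0.55, all on the scale of log2(FPKM + 0.5). Of the hosts of named rings, Pde5a fell by 1.18 (adjusted p = 0.0351), at 51.0, 55.9 and 31.7 FPKM against 109.0, 106.9 and 92.6 FPKM. The mRNAs of Setd3, Ube2d2a, Dcun1d1, Rbm4, Ankrd12, Ppm1b, Osbpl9, Calcrl, Chmp3, Cdkn3, Tmbim4, Arhgap6, Ptp4a2, Birc6 and Ube4b did not pass, with log2 fold changes between -0.14 and 0.24. Macf1 had wider changes without passing, at 371, 428 and 279 FPKM in PBLI against 701, 600 and 552 FPKM in Control (log2 fold change -0.80, limma adjusted p = 0.0690). Itga8 was at 76.3, 85.7 and 47.7 FPKM in PBLI against 105, 113 and 132 FPKM in Control (log2 fold change -0.77, limma adjusted p = 0.120). In both the groups did not overlap.

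**Figure D5:**
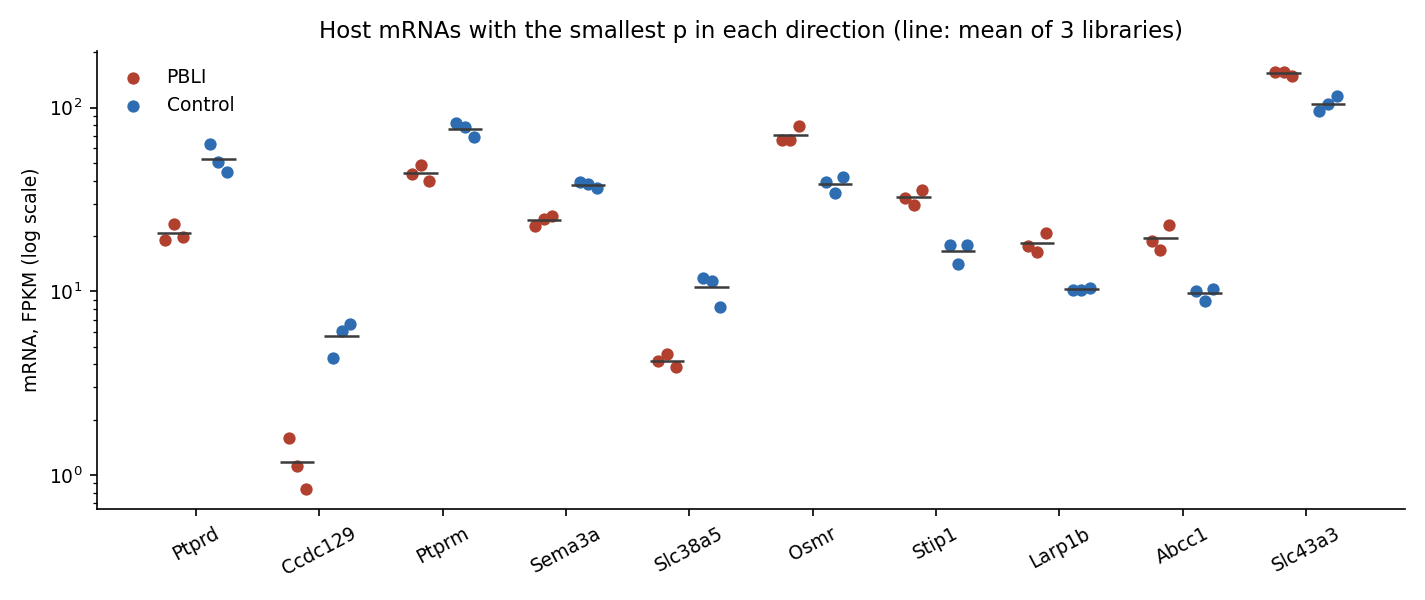
FPKM (log axis) of the 5 host mRNAs with the smallest p among those that fell and the 5 among those that rose, with PBLI libraries on the left and Control libraries on the right of each gene (points) and the mean of 3 libraries (line). Ptprd stands at 19.0 to 23.3 in PBLI and 44.4 to 63.2 in Control. No gene shown has overlapping groups, which the choice by smallest p favours.

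Markers of alveolar type 2 cells summed to 15123 to 16230 FPKM in PBLI and 12213 to 13487 FPKM in Control, and endothelial markers to 2644 to 3228 FPKM in PBLI and 2999 to 3165 FPKM in Control, so the labelled tissue had its own markers in every library. The sums of the alveolar type 2 markers did not overlap between the groups, and Sftpd was higher in PBLI (log2 fold change 0.62, limma adjusted p = 0.0411). Sftpc alone made up most of these sums, at a mean of 9407 FPKM in PBLI and 7105 FPKM in Control (limma adjusted p = 0.302). Of the 14 markers 3 were higher and 0 were lower at an unadjusted p under 0.05 (limma). Markers of other cells moved with the groups as well. Of 10 neutrophil markers 8 passed the fold and p thresholds as higher in PBLI, with a summed level of 2371, 2038 and 539 FPKM in G3, G4 and G5 of PBLI, against 336, 216 and 310 FPKM in Control 1, 2 and 3. G5 stood apart from the other two PBLI libraries in this sum, and 7 of the 10 markers were above every Control library in G5 while 3 were not. Of 13 lymphocyte markers 5 passed as lower, at 30.0 to 86.4 FPKM against 93.7 to 131 FPKM. Of 16 markers of fibroblasts, pericytes and smooth muscle 2 passed as lower, and 3 had an adjusted p under 0.05 as lower (limma). At an unadjusted p under 0.05 (limma) 8 were lower and 1 was higher, the fibroblast marker Pdgfra (log2 fold change 0.48). The sums of this list were 1310 to 1781 FPKM in PBLI against 1837 to 2069 FPKM in Control, without overlap. Of 20 endothelial markers 2 passed as lower and none as higher, 6 were lower and 1 was higher at an unadjusted p under 0.05, and their sums overlapped. Over all tested mRNAs, 1.38% passed the fold and p thresholds as higher and 1.17% as lower. An unadjusted p under 0.05 was reached by 19.2% of all tested mRNAs, and an adjusted p under 0.05 as lower by 0.928%. Of 11 macrophage and monocyte markers 1 passed, Cd14, at 17.5, 16.7 and 19.3 FPKM in PBLI against 5.81, 6.96 and 7.82 FPKM in Control (limma adjusted p = 0.00986). No marker of these lists was at 0 in all libraries. No neutrophil or lymphocyte marker was a host, while 2 of the 16 mesenchymal and 4 of the 21 endothelial markers were. In bulk lung fewer cells of a type and less RNA per cell cannot be told apart, and the part of such shifts in the host mRNA and ring values was not tested.

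Genes of 2 regulatory classes were looked up among the hosts. Of 72 chromatin regulators 18 hosted 25 rings without a record, with 70 reads in PBLI and 60 in Control, of which 75 were those of Setd3, which stands in the list although its known substrate is actin. Without Setd3 the list had 24 rings with 31 reads in PBLI and 24 in Control. Nsd1, a histone methyltransferase, gave 2 rings with 3 reads each, and Ncor1, a corepressor, had 0, 3 and 0 reads in PBLI and none in Control. Of 82 ubiquitin ligases and deubiquitinases 16 hosted 20 rings, with 31 and 24 reads, among them the rings of Cblb, Birc6 and Ube4b. The same lists hosted 90 and 63 recorded exonic circRNAs from 43 and 41 genes, and whether the lists host rings more often than other genes was not tested.

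Lung cell markers were among the hosts as well, while 4.24% of all tested mRNAs came from hosts. Of 21 endothelial markers 4 were hosts (Calcrl, Pecam1, Ptprb and Tie1), of 15 alveolar type 1 markers 3 (Col4a4, Lmo7 and Rtkn2) and of 14 alveolar type 2 markers 3 (Abca3, Etv5 and Lamp3). The Pecam1 ring, from a junction protein of endothelium, had 0, 0 and 1 reads in PBLI against 3, 0 and 2 in Control (edgeR, adjusted p = 0.586). Dnah9 of ciliated cells gave 2 rings, Itga8 and Limch1 of mesenchymal cells 1 each and Mrc1 of macrophages 1. No erythroid marker was a host.

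Factors known to act on circRNAs were compared as mRNAs. Of 25 measured entries for genes that promote or repress back-splicing none passed either threshold (limma, 6 at an unadjusted p under 0.05, as were 19.2% of all tested mRNAs). With 1.38% and 1.17% of all tested mRNAs past the fold and p thresholds, 0 of 25 is near the background. The smallest p was that of Esrp1, an epithelial splicing regulator, at 12.3 ± 0.93 FPKM in PBLI and 8.83 ± 0.53 FPKM in Control (SD, n = 3 each; log2 fold change 0.46, limma adjusted p = 0.102). Of 15 genes for export and turnover of circRNAs none passed (1 at an unadjusted p under 0.05), with the smallest p for Eif2ak2, the kinase PKR that circRNAs are known to bind (log2 fold change -0.47, adjusted p = 0.138). Esrp1 and Qk of the back-splicing list and Ythdf2 of the turnover list were themselves hosts of rings without a record.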

How the data were processed

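Total RNA of 6 mouse lung libraries was sequenced as paired reads of rRNA-depleted, stranded libraries. The authors trimmed reads with cutadapt, aligned them to mm10 with STAR (2.5.1b), detected circRNAs with DCC and looked them up by position in circRNA databases. The circRNA values deposited by the authors are raw counts of junction reads. The mRNA values deposited by the authors are FPKM from cuffdiff after hisat2. Columns that were not used numbered 24: log-scaled circRNA values, mRNA read counts and all lncRNA values.

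Counts of all 3696 circRNAs were tested by the quasi-likelihood test of edgeR (4.0.16) after TMM scaling, and log2(FPKM + 0.5) of 14760 genes with at least 0.5 FPKM in 1 library with limma (3.58.1, mean-variance trend), both with Benjamini-Hochberg adjustment over all features. DESeq2 (1.42.0) was an alternative. Both tests were tried on simulated data. Levels of rings are reads per 1000 junction reads of the library. Total junction reads ran from 2513 to 4733 per library, and a zero over a group was set against 3 reads. Single values per library were compared by exact permutation tests in scipy (1.17.1), and classes within libraries by exact sign permutation over 6 libraries. Exons and sequences came from RefSeq on GRCm38.p6, the same build as mm10, and exon ends also from GENCODE M21. Python (3.11.15) with pysam (0.24.0), pandas (2.3.3) and matplotlib (3.10.9), and R (4.3.3), were used.

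Named rings are the 12 with the most reads, the 5 per direction with the smallest p, those the paper names, those of the 5 hosts with the most, those read in all 6 libraries, and up to 4 per gene list. Results that fall under these rules for a few items are not reported here. Named host mRNAs are the 5 per direction with the smallest p and hosts of named rings. The rings and gene lists were chosen with earlier results of these data known. The comparisons of exon position, exons spanned, introns and common ends, and those limited to rings with 2 reads, were added after the data were seen. No 2 libraries held the same counts. Libraries are pools of animals, and in comparisons of the groups the pools are the replicates. The sign permutation tests compare classes of rings within libraries, and their p values are no measure of the spread between pools. Alternatives were other scalings, filters, tests and pseudocounts, and leaving out each library.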

Additional observations from a re-analysis of the deposited data

How the results depend on the processing

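The number of rings without a record that passed as higher in PBLI was 2 with RLE size factors, library totals, edgeR's exact test or a read in at least 2 libraries, 3 of 37 among rings with at least 6 reads (against 39 of 862 circRNAs) and 1 with DESeq2 (against 4 of 3696), and ran from 1 to 3 when a library was left out. Over all 3696 circRNAs the count was 25 with RLE size factors, 21 with library totals and 22 with edgeR's exact test. With a read in at least 2 libraries it was 39 of 1890, of which 171 had no record. When a library was left out it ran from 22 to 35. The number of rings without a record that passed as lower was 0 except for 1 with a read in at least 2 libraries. Over all circRNAs it was 20 in that setting and 7 to 26 in the others. The Zfx ring stayed past an unadjusted p of 0.05 whichever library was left out, with log2 fold changes of 1.83 to 3.12. The Lrch1 ring had a log2 fold change of 3.85 and an unadjusted p of 0.328 with DESeq2, and without PBLI G4 it had no reads. Host mRNAs higher in PBLI numbered 5 with a pseudocount of 0.1 and 5 with quantile scaling, in place of 3, and 1 to 7 without a library, and those lower 7 to 14. Over all tested genes, 274 and 236 were higher in these 2 settings, in place of 204. Without a library 185 to 275 genes were higher and 145 to 281 lower. At an adjusted p under 0.05 the host mRNAs ran from 0 to 13 and from 0 to 14 without a library, and 5 were lower with no filter. Over all tested genes these were 5 to 311, 0 to 188 and 68. The median of reads per detected ring differed by 0 between the classes, and without a library the mean difference ran from -0.52 to -0.43. The length difference was 51.8 bases with at least 3 reads (p = 0.0625, exact sign permutation), 59.2 bases as a read-weighted mean (p = 0.156), 16.3 bases at 2 reads (p = 0.688), and 35.6 to 49.1 bases without a library; 5 libraries cannot give a p below 0.0625. The share of rings of 1 exon reversed to 0.79 percentage points at 2 reads. The differences in shares and numbers between the groups kept their direction under all alternatives run, the share of junction reads at 0.51 to 1.68 percentage points, that of exonic junction reads at 0.52 to 1.92 and the number detected at 57.5 to 91.0 without a library. With a tolerance of 5 bases for common ends the count stayed at 111. No paired analysis was possible because the PBLI columns carry no sample number. With 2 reads for most rings, differences of single rings were mostly not detectable at this depth.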
